A study of Rattus norvegicus with 25 samples.

Results

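Collagen genes were followed in bulk RNA of the rat basolateral amygdala (BLA) and dentate gyrus (DG) after a severe stressor. Every row named Col, a number, a, and a number, in any case, and with an expected count above 0 in at least 1 library of the region was taken, which gave 44 of 26312 rows in the BLA and the same 44 rows in the DG. These rows carried 43 names, because Col4a3 has 2 gene models in the annotation. Class was assigned by chain type, with the fibrillar, basement membrane and type VI collagens as the main classes.

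The animals were adult male wild type Sprague-Dawley rats. Stressed rats underwent 3 h of immobilization with a predator scent (fox urine), and tissue was taken 9 days after the stress as punches of the left BLA and the left dorsal DG. Control rats, labelled as undisturbed, had a cage change in place of the stressor and went through the same behavioral tests. Stressed rats were divided by a composite score of anxiety-like behavior into a low (stress-low) and a high (stress-high) group, so the stress groups share the stressor and differ in the behavior that followed. The BLA gave 7 control, 3 stress-low and 3 stress-high libraries, and the DG gave 6, 3 and 3, each from 1 animal, with 11 animals in both regions.

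The BLA library of animal 35 is named as a control, although its treatment field gives the stressor, and it was taken as control. Control animal 2 in the BLA and control animal 35 in the DG stood far from the other libraries on the first principal component and were left out of the tests. Their scores were 46.4 and 56.0, against -17.3 to 12.5 and -13.7 to 2.3 in the other libraries. The BLA library of animal 2 lay above all others for 25 of the 38 collagens tested, at a median of 1.9 times the median of the other libraries. The DG library of animal 35 lay below all others for 10 of 32. The shares of all genes are not given here, so these counts are not read as particular to collagens. Every level below is from the 12 BLA and 11 DG libraries that remained, unless stated. Libraries held 12709493 to 22801247 expected counts in the BLA and 11656439 to 19477932 in the DG. The region markers Prox1 and C1ql2, genes of dentate granule cells, had 63.03 to 95.48 and 284.5 to 503.99 TPM in the DG. In the BLA they had 2.03 to 2.93 and 1.85 to 4.28. TPM counts a gene's transcripts after correction for length, on a scale with the same total in each library. Of the other dentate granule markers, Dsp had 0.82 to 10.34 TPM in the DG and 0.03 to 0.4 in the BLA. Tdo2 was near 0 in both regions (at most 0.19 and 0.07). Calb1 did not separate the regions, with 80.81 to 127.43 TPM in the DG and 96.99 to 160.14 in the BLA. Of the BLA markers, ETV1 had 76.94 to 142.99 TPM in the BLA and 8.52 to 12.05 in the DG. Lypd1 had 72.57 to 146.82 and 20.43 to 37.68. Rspo2 (9.04 to 14.83 and 12.47 to 23.9) and Thsd7b (2.81 to 5.86 and 3.85 to 6.86) overlapped, with higher medians in the DG. Slc17a7 was lower in the BLA (817.45 to 1184.12) than in the DG (1574.61 to 1995.67). The sum of the 5 BLA markers, most of it Slc17a7, was not higher in the BLA (1055.4 to 1436.4 TPM) than in the DG (1627.3 to 2057.8).

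Collagens are secreted proteins of 3 chains wound into a triple helix, and each gene encodes 1 kind of chain. Fibrillar collagens (types I, II, III, V, XI, XXIV and XXVII) form or organise fibrils, which in the brain are found mainly in the meninges and around larger vessels. Type IV chains form the network of the vascular basement membrane, and type VI chains form beaded filaments next to it. The transmembrane collagens, such as Col25a1, are also made by neurons.

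The genes of the most abundant type IV chains, Col4a1 and Col4a2 (COL4A2 in the table), lie head to head. Their RefSeq starts on the GRCr8 assembly are 77 bases apart, at positions 84885597 (Col4a1, + strand) and 84885520 (Col4a2, opposite strand) of chromosome 16. The deposited values rest on the older Rn5 assembly, so these positions are not those of the deposited annotation. The 76 bases between the starts, chr16:84885521-84885596, are shown because the levels of this pair are described together below.

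Between the starts of Col4a2 and Col4a1: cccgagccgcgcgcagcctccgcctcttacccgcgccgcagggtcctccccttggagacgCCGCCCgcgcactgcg

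The sequence is given 5′ to 3′ on the + strand. The capitals mark CCGCCC, the reverse complement of GGGCGG, the only match to 3 short motifs that were searched on both strands. The sequence has a GC content of 78.9%. CCAAT and TATAAA were not in this window. GGGCGG was present in the 76 bases before the start in 18.1% of 33469 RefSeq promoters, CCAAT in 13.0% and TATAAA in 4.61%. Among the 38 collagen promoters in the set these shares were 39.5%, 5.26% and 2.63%. Of the 43 collagen names, 34 had a promoter in this set. A match of letters describes the sequence and does not show a binding site.

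Levels of the collagens are compared with each other in TPM. In the BLA the highest medians over libraries were 23.15 TPM for Col25a1, 22.99 for Col11a2, 14.86 for Col4a2, 11.085 for Col5a3 and 9.91 for Col4a1. In the DG they were 32.26 TPM for Col11a2, 31.97 for Col25a1, 27.88 for Col4a2, 21.33 for Col6a1 and 18.24 for Col4a1. Thus a fibrillar chain, a transmembrane collagen and the main pair of basement membrane chains led in both regions. Col25a1 is held in the annotation as a short model of 1238 to 1286 bases. The effective transcript length used for TPM was 50 bases below the full length in every BLA library and 261 to 274 bases below it in the DG, and the tables were made separately, so levels were not tested between regions.

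**Figure D1:**
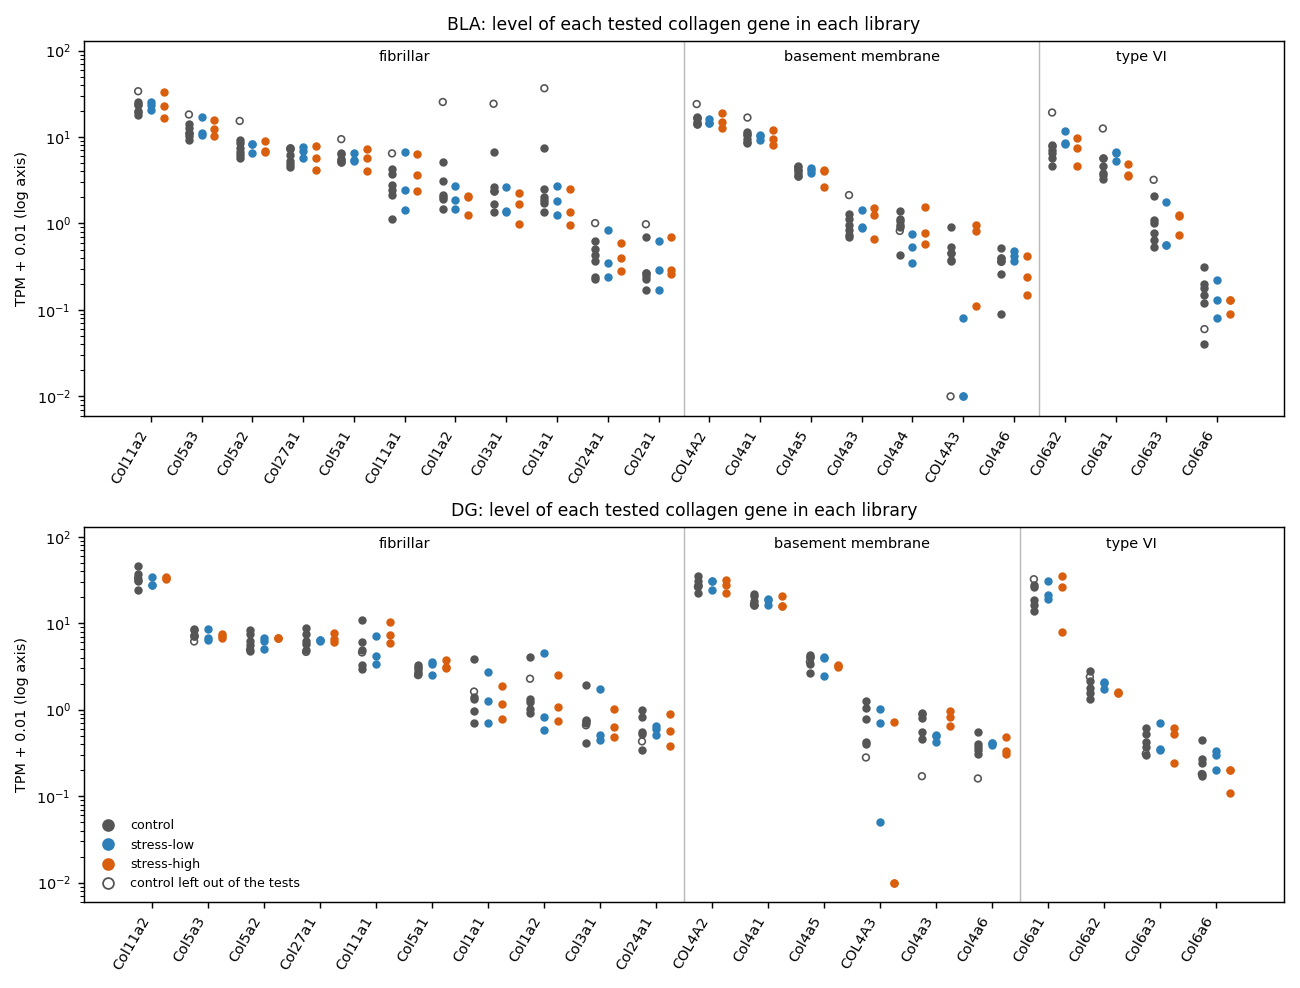
TPM of the tested fibrillar, basement membrane and type VI genes (x axis) in each library of the BLA and the DG, on a log axis after adding 0.01, with colors for the 3 groups and hollow points for the control left out of the tests. Col11a2 leads the fibrillar genes and Col4a2 the basement membrane genes in both regions, and Col6a2 leads type VI in the BLA but Col6a1 in the DG (COL4A3 is the second Col4a3 model).

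Of the 44 rows, 6 were too low to compare in either region. These were Col10a1 and Col8a2 (network-forming), Col22a1 (a FACIT collagen, a kind that attaches to fibrils), Col26a1, Col6a4 and Col6a5. No library tested held more than 11 expected counts of any of them in the BLA or 12 in the DG. A further 6 genes passed the filter on low counts in the BLA alone: Col2a1, Col4a4, Col8a1, Col13a1, Col14a1 and Col17a1. Col8a1, a chain of the sheet around endothelium and cornea, had 47 to 149 expected counts in every BLA library and 0 to 3 in the DG. Col14a1, a FACIT collagen of connective tissue, had 23 to 221 in the BLA and 0 to 5 in the DG. Thus 38 collagens were tested in the BLA and 32 in the DG, all of the latter also among the former. Passing the filter did not make a gene abundant, and the lowest median among those tested was 5 expected counts in both regions.

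The fibrillar class held 11 genes. In the BLA, medians were 22.99 TPM for Col11a2, 11.085 for Col5a3, 7.14 for Col5a2, 5.935 for Col27a1, 5.445 for Col5a1 and 2.615 for Col11a1. The classical fibril chains lay lower, at 2.03 for Col1a2, 1.975 for Col3a1 and 1.835 for Col1a1, and Col24a1 (0.375) and Col2a1 (0.26) were lowest. In the DG, Col11a2 (32.26), Col5a3 (7.19), Col5a2 (6.65), Col27a1 (6.38), Col11a1 (5.97) and Col5a1 (3.1) again lay above Col1a1 (1.24), Col1a2 (1.05), Col3a1 (0.7) and Col24a1 (0.55).

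Type I collagen, a trimer of Col1a1 and Col1a2 chains, and type III, made of Col3a1 chains, are the main fibril collagens of connective tissue. In the BLA, Col1a1 ranged from 1.36 to 7.42 TPM in controls (median 1.935), with 1.23, 2.67 and 1.83 in stress-low and 0.96, 1.33 and 2.49 in stress-high. The highest control, animal 35, stood alone, and the groups otherwise overlapped. Col3a1 had the same form, with 1.36 to 6.65 TPM in controls (median 2.385, the highest again animal 35), 1.33, 2.65 and 1.39 in stress-low and 0.97, 1.67 and 2.27 in stress-high. Summed fibroblast markers were 42.0 TPM in animal 35, the lowest of the controls (42.0 to 63.7), and summed markers of striatum and central amygdala were 125.9, the highest of the controls (37.7 to 125.9). The part of neighboring tissue in these values was not tested.

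In the DG, Col1a1 was 1.38, 1.33, 3.8, 0.7 and 0.96 TPM in controls, 1.24, 2.71 and 0.69 in stress-low and 0.77, 1.16 and 1.87 in stress-high. Col1a2 was 1.31, 1.23, 4.1, 1 and 0.91 TPM in controls, 0.81, 4.46 and 0.57 in stress-low and 0.73, 1.05 and 2.5 in stress-high. Control animal 17 and stress-low animal 33 held the high values, and all 3 groups overlapped. Animal 17 had the highest summed fibroblast markers (67.4 TPM, against 28.5 to 47.4 in the other libraries tested) and mural cell markers (90.3 against 47.3 to 65.2), and was the highest library for 20 of the 44 collagens. The share of all genes that were highest in this library is not given here. Animal 33 had 47.4 TPM of fibroblast markers, the highest of the rest. The part of meningeal or vascular tissue was not tested, and in bulk tissue more cells of a type cannot be told apart from more RNA per cell.

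The basement membrane class held 7 rows. Col4a2 (14.86 TPM), Col4a1 (9.91) and Col4a5 (4.05) led in the BLA, followed by Col4a3 (0.935), Col4a4 (0.835), the second Col4a3 model (0.41) and Col4a6 (0.375). In the DG the order was Col4a2 (27.88), Col4a1 (18.24), Col4a5 (3.34), the second Col4a3 model (0.69), Col4a3 (0.64), Col4a6 (0.38) and Col4a4 (0.35). Col4a1 in the BLA was 9.93 ± 1.19 TPM in controls (SD, n = 6), 10.1 ± 0.642 in stress-low (n = 3) and 9.83 ± 2.05 in stress-high (n = 3). Col4a2 was 15.6 ± 1.42, 15.0 ± 0.875 and 15.5 ± 3.07 TPM in the same groups. In the DG, Col4a1 was 18.7 ± 2.55 (n = 5), 17.95 ± 1.32 and 17.4 ± 2.71 TPM, and Col4a2 was 28.8 ± 4.86, 28.6 ± 3.79 and 27.4 ± 4.74. Group means of this pair differed by less than the SD of a group in both regions.

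The type VI class held 4 genes that could be compared: Col6a1 and Col6a2, which with Col6a3 make the usual type VI trimer, and Col6a6. BLA medians were 7.695 TPM for Col6a2, 4.72 for Col6a1, 0.885 for Col6a3 and 0.12 for Col6a6. In the DG Col6a1 stood far above the others, at 21.33 TPM, with 1.72 for Col6a2, 0.41 for Col6a3 and 0.19 for Col6a6. Within the BLA the Col6a1 level over that of Col6a2 was 0.465 to 1.01 (median 0.589), and within the DG it was 4.94 to 21.9 (median 10.9). RSEM's length for Col6a1 varied between libraries, from 3424 to 3885 bases in the BLA.

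Among the other classes, the FACIT collagens Col19a1 (7.59 TPM), Col16a1 (5.9), Col9a3 (4.865), Col12a1 (3.36), Col9a2 (3.18) and Col14a1 (1.345) lay above Col20a1 (0.635) and Col9a1 (0.22) in the BLA. In the DG they were Col9a2 (8.83), Col16a1 (6.74), Col9a3 (5.55), Col19a1 (4.65), Col12a1 (4.33), Col20a1 (1.19) and Col9a1 (0.19). The multiplexins, which carry endostatin-like ends and sit in basement membranes, were Col18a1 (3.175 TPM in the BLA, 9.67 in the DG) and Col15a1 (0.855 and 0.44). Col23a1, a transmembrane collagen, had 1.895 TPM in the BLA and 7.37 in the DG. Col8a1 had 4.155 in the BLA, Col7a1, the anchoring fibril collagen, had 0.34 and 0.33, and Col13a1 and Col17a1 had 0.165 and 0.15 in the BLA.

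Summed by class, the fibrillar collagens gave 52.64 to 72.3 TPM in BLA controls (median 63.955), 57.37, 62.16 and 78.89 in stress-low and 49.5, 61.49 and 87.37 in stress-high. The basement membrane sum was 29.39 to 35.46 in controls (median 32.105), 31.03, 31.26 and 31.42 in stress-low and 25.76, 30.75 and 39.2 in stress-high. The type VI sum was 10.58 to 15.27 in controls (median 11.94), 14.59, 17.11 and 18.9 in stress-low and 9.5, 12.18 and 16.05 in stress-high. The stress-low median of type VI was 1.43 times the control median, and the lowest stress-low library still lay inside the control range. Every other ratio of the main classes in the BLA lay between 0.958 and 1.02. Smaller classes also had unlike medians in controls, stress-low and stress-high, with overlapping libraries. These were 3.7, 4.42 and 4.6 TPM for the multiplexins and 4.365, 5.17 and 3.85 for the network-forming collagens. In the DG the type VI sum was 17.65 to 30.39 in controls (median 21.42), 21.13, 24.17 and 33.86 in stress-low and 10.45, 28.59 and 36.78 in stress-high, which overlapped. The DG fibrillar sum was 51.59 to 95.75 in controls, 59.45, 64.15 and 64.19 in stress-low and 65.47, 70.64 and 71.16 in stress-high, so the stress groups lay side by side without overlap inside the control range. The DG basement membrane sum was 44.2 to 64.06 in controls, 44.22 to 56.01 in stress-low and 43.26 to 56.97 in stress-high. Outside the main classes, the DG transmembrane sum was 40.56 to 48.31 in controls, 38.13 to 40.03 in stress-low and 36.87 to 39.21 in stress-high. Every stressed library thus lay below every control tested, and the left-out control lay lower still, at 24.01. Class sums were not tested.

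**Figure D2:**
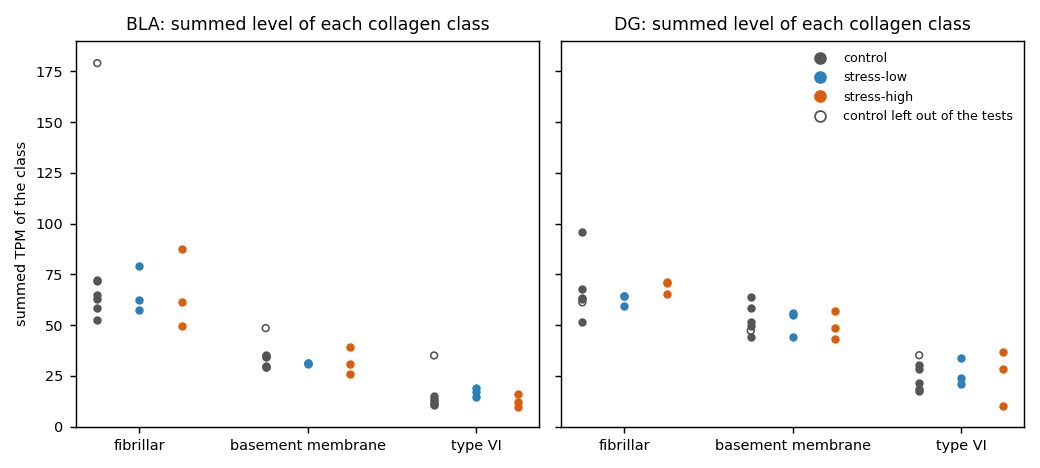
Summed TPM of the fibrillar, basement membrane and type VI collagens in each library, by group and region, with hollow points for the control library left out of the tests. In the BLA the type VI sum of the 3 stress-low libraries lies at 14.59 to 18.9, above or within the upper part of the control range (10.58 to 15.27). For these classes, every other stress group overlaps the controls of its region.

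Control and stress-low rats were compared first, to ask which genes differed between unstressed rats and stressed rats with little anxiety-like behavior. Controls labelled low and high were both used, so the stressor and the behavior score are not separated here. In the BLA, Col6a1 and Col6a2 were higher in stress-low, and Col4a4 and the second Col4a3 model were lower, each only before adjustment for the number of genes. No collagen passed an adjusted p of 0.05 by edgeR's quasi-likelihood test with Benjamini-Hochberg adjustment, as was so for 0 (0%) of all 15230 genes in each BLA comparison. At an unadjusted p under 0.05 there were 4 of 38 collagens (10.5%), against 2.75% of all genes. The count was 2 without control animal 32, without control animal 35 or without stress-low animal 22. Shares of all genes in fits with a library left out are not given here or below. Counts from those fits are therefore not read as particular to collagens. With gene models of 1 name summed, as for Col4a3, the count was 3 of 37, against 402 of all 14953 genes. In all, 22 collagens were higher and 16 lower in stress-low, with a median log2 fold change of 0.05, against -0.002 over all genes.

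Col6a1 (ENSRNOG00000001249) was 3.25 to 5.74 TPM in BLA controls (median 4.23), 6.51, 6.74 and 5.24 in stress-low and 3.5, 3.64 and 4.83 in stress-high. The 3 stress-low libraries lay above all 3 stress-high libraries, and 2 of them above every control tested. The log2 fold change from control to stress-low was 0.46 (SE 0.15, unadjusted p = 0.00955, adjusted p = 1.0). The left-out control, animal 2, had 12.54 TPM, and with every mapped library the log2 fold change was 0.17 (unadjusted p = 0.563). This 1 library therefore ended the difference from controls at the unadjusted level.

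Col6a2 (ENSRNOG00000001254) was 4.58 to 8.14 TPM in BLA controls (median 6.78), 11.67, 8.37 and 8.45 in stress-low and 4.65, 7.54 and 9.62 in stress-high. All 3 stress-low libraries exceeded every control tested in TPM, although their normalised counts overlapped. The log2 fold change was 0.46 (SE 0.20, unadjusted p = 0.0376, adjusted p = 1.0). Animal 2, left out, had 19.2 TPM, and with every mapped library the value was 0.17 (unadjusted p = 0.582). Without stress-low animal 22 it was 0.28 (unadjusted p = 0.223), and the unadjusted call was also lost without control animals 27, 32 or 35 or stress-low animal 34 (0.36 to 0.51). The other chains of the class, Col6a3 and Col6a6, had log2 fold changes of -0.12 (SE 0.42) and -0.27 (SE 0.48), each smaller in size than its SE. Summed markers of mural cells (100.6 to 150.9 TPM in controls, 99.0 to 135.5 in stress-low) and fibroblasts (42.0 to 63.7, 41.8 to 64.7) overlapped between these groups.

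**Figure D3:**
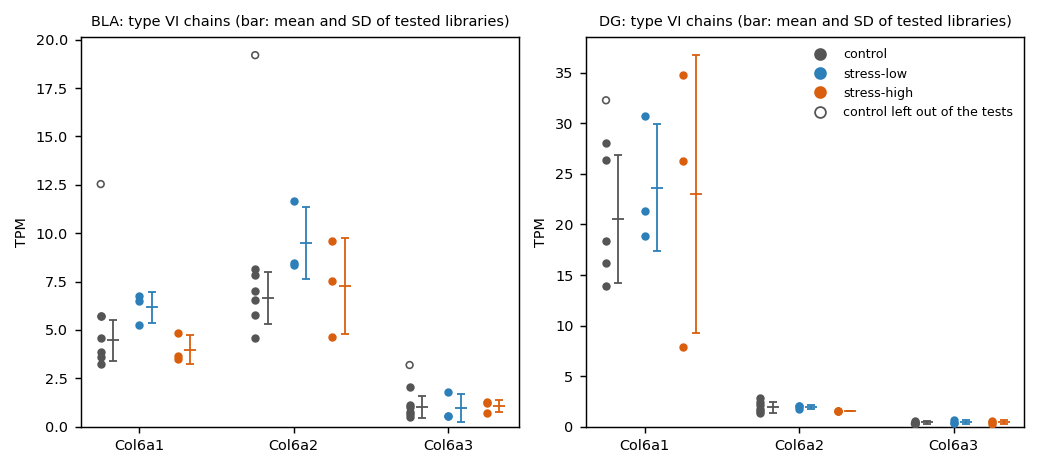
TPM of Col6a1, Col6a2 and Col6a3 in each library of both regions, with bars for the mean and SD of the libraries tested and hollow points for the control left out. BLA Col6a1 in stress-low (5.24 to 6.74) lies above stress-high (3.5 to 4.83), while the left-out control lies at 12.54, and DG Col6a1 runs from 7.93 to 34.81 within stress-high.

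Col4a4 (ENSRNOG00000014851), a chain of the specialised network of kidney and cochlea, was 0.42 to 1.4 TPM in BLA controls (median 1.01), 0.53, 0.34 and 0.74 in stress-low and 0.57, 0.76 and 1.55 in stress-high. These values rest on 4 to 17 expected counts per library and the groups overlapped. The log2 fold change from control to stress-low was -0.93 (SE 0.43, unadjusted p = 0.0499, adjusted p = 1.0). It was -0.61 without stress-low animal 30 and -1.28 without stress-low animal 34, and -0.36 by limma on log2(TPM + 1) (unadjusted p = 0.0936). The second model of Col4a3 (ENSRNOG00000046521) had 5.2 to 11.5 expected counts in controls, at most 0.8 in stress-low, and 1.3 to 17.6 in stress-high. With counts this near 0 in stress-low no fold is given (unadjusted p = 0.00142, adjusted p = 1.0). Reads shared between both models of Col4a3 may be split differently in each library. Summed over the models, the log2 fold change of Col4a3 was -0.04 (SE 0.23, unadjusted p = 0.854).

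In the DG, 1 of 32 collagens had an unadjusted p under 0.05 between control and stress-low (3.12%), against 6.90% of all 14080 genes. The count was 0 without control animal 28, stress-low animal 22 or stress-low animal 34. It was 2 without control animal 2, control animal 14 or stress-low animal 33, again with no share of all genes given. With gene models of 1 name summed the count was 1 of 31, against 971 of all 13850 genes. None passed the adjusted threshold, as was so for 0% of all genes in each DG comparison. The direction was higher for 15 collagens and lower for 17 in stress-low, with a median of -0.02. The gene was Col4a3 (ENSRNOG00000015365), at 0.54, 0.45, 0.89, 0.9 and 0.8 TPM in controls, 0.41, 0.5 and 0.48 in stress-low and 0.82, 0.64 and 0.95 in stress-high. Its log2 fold change was -0.61 (SE 0.26, unadjusted p = 0.0364, adjusted p = 0.718), and -0.57 (SE 0.24, unadjusted p = 0.0325) with both models summed. With every mapped library it was -0.42 (unadjusted p = 0.281). The control and stress-low libraries overlapped. Col6a1 in the DG was 18.33, 28.04, 13.89, 16.15 and 26.35 TPM in controls, 18.82, 30.71 and 21.33 in stress-low and 34.81, 26.25 and 7.93 in stress-high, and its log2 fold change was 0.21 (SE 0.37, unadjusted p = 0.583).

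Control and stress-high rats were compared to ask which genes differed in animals with lasting anxiety-like behavior. No collagen reached an unadjusted p under 0.05 in either region, against 2.57% of all BLA genes and 2.19% of all DG genes. Leaving out 1 library at a time gave at most 2 in the BLA (without stress-high animal 7) and at most 1 in the DG. The matching shares of all genes are not given. In stress-high, 20 of 38 collagens were higher in the BLA and 14 of 32 in the DG, with medians of 0.03 and -0.02 on the log2 scale. The smallest p in the BLA was that of Col3a1, at a log2 fold change of -0.83 (SE 0.43, unadjusted p = 0.0751, adjusted p = 1.0). Without control animal 35, whose Col3a1 level stood apart, this value was -0.37, and with every mapped library it was -1.80 (unadjusted p = 0.04). The smallest p in the DG was that of Col25a1, a collagen found in amyloid plaques, with 27.56 to 36.54 TPM in controls and 31.59, 31.97 and 24.77 among stress-high libraries. Its log2 fold change was -0.19 (SE 0.11, unadjusted p = 0.115, adjusted p = 1.0) and the groups overlapped. It was -0.10 without stress-high animal 7, -0.26 without control animal 32 (unadjusted p = 0.0165) and -0.06 with every mapped library.

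The stress groups were compared with each other to ask which genes followed behavior after a shared stressor. In the BLA 2 of 38 collagens had an unadjusted p under 0.05 (5.26%), against 1.98% of all genes, and none passed after adjustment. Without stress-low animal 30 there were 4, but the share of all genes in that fit is not given. This 4 is therefore not read as particular to collagens. With gene models of 1 name summed there was 1 of 37, against 286 of all 14953 genes. Col6a1 was lower in stress-high than in stress-low, with no overlap between the libraries given above. Its log2 fold change was -0.61 (SE 0.18, unadjusted p = 0.00443, adjusted p = 1.0). Leaving out each library in turn gave -0.69 to -0.56, and with every mapped library the unadjusted p was 0.0985. The same comparison gave -0.37 (SE 0.23) for Col6a2, with an unadjusted p of 0.132. The second gene was the low second model of Col4a3 (unadjusted p = 0.00085), and the sum of both models gave 0.30 (SE 0.26, unadjusted p = 0.264).

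In the DG 1 of 32 collagens had an unadjusted p under 0.05 between the stress groups (3.12%), the same share as among all genes (3.12%). The count was 0 without stress-low animal 22 or stress-high animal 20. It was 2 without stress-low animal 33, stress-low animal 34 or stress-high animal 19, again with no share of all genes given. In the main fit the gene was Col4a3, higher in stress-high, with a log2 fold change of 0.79 (SE 0.28, unadjusted p = 0.0142, adjusted p = 1.0). The libraries of the groups did not overlap, at 0.41 to 0.5 against 0.64 to 0.95 TPM and 17.2 to 22.6 against 39.5 to 56 expected counts. With both models summed the value was 0.53 (SE 0.26, unadjusted p = 0.0606), and with every mapped library the unadjusted p for the first model was 0.0767. Summing gene models of 1 name left 0 of 31 collagens at this level, against 438 of all 13850 genes. Here 15 of 32 collagens were higher in stress-high, as were 18 of 38 in the BLA, with medians of -0.02 and -0.01.

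**Figure D4:**
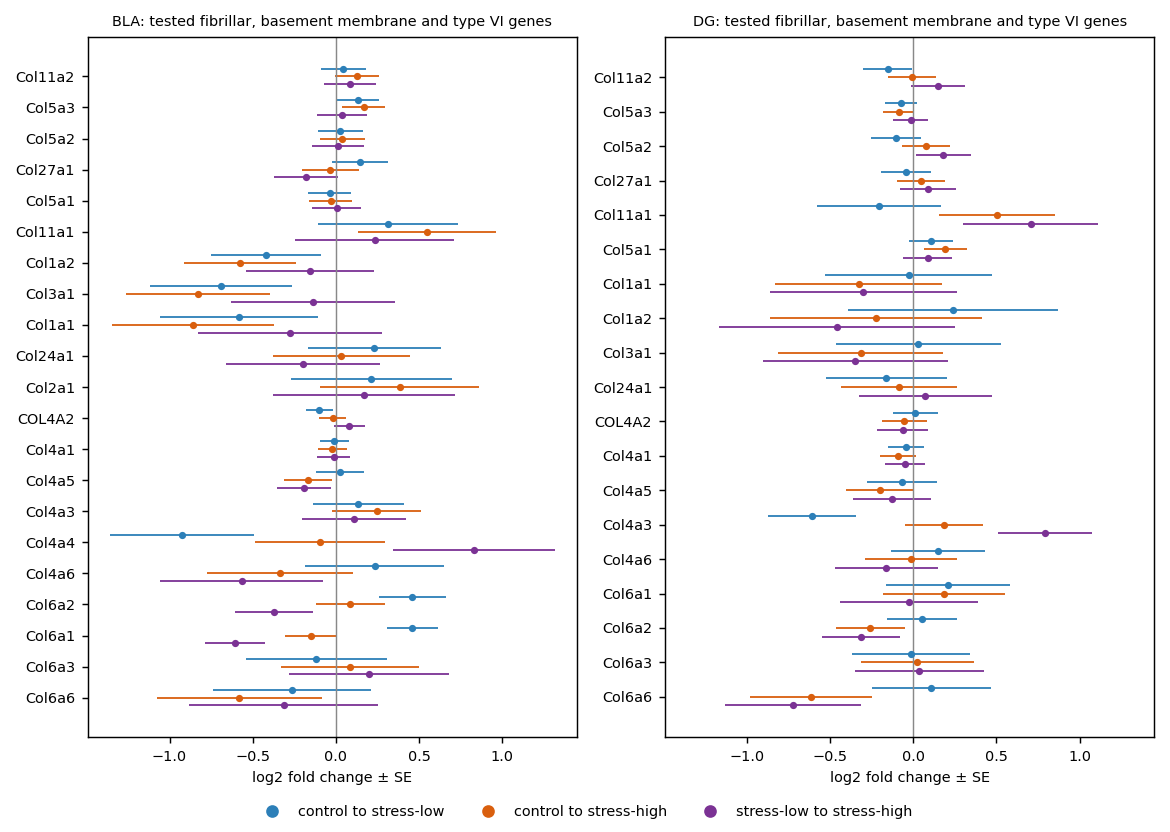
Log2 fold change (x axis) with its standard error for each tested fibrillar, basement membrane and type VI gene in the 3 comparisons of each region, with the low second model of Col4a3 left out. BLA Col6a1 lies at 0.46 from control to stress-low and at -0.61 from stress-low to stress-high, and the bars of Col1a1, Col1a2 and Col3a1 are wide in both regions (SE 0.332 to 0.708).

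Whether a difference was itself different between regions was tested as an interaction over 15453 genes, 39 of them collagens. No collagen passed after adjustment, as was so for 0% of all genes in each of the 3 contrasts. Before adjustment, p was under 0.05 for 1 collagen from control to stress-low (3.21% of all genes), 0 from control to stress-high (1.84%) and 1 from stress-low to stress-high (2.00%). Both calls were the second model of Col4a3 (unadjusted p = 0.0421 and 0.00518), which is near 0 counts in some groups. This fit had no term for animal, although 9 animals had a tested library in both regions. With animal as a block the collagen counts were 1, 2 and 1, again with 0 after adjustment. Among all 15453 genes, 444, 430 and 538 had an unadjusted p under 0.05, and 0, 1 and 0 passed after adjustment. For Col6a1 the difference in log2 fold change, DG minus BLA, was 0.60 (SE 0.52, unadjusted p = 0.258) between the stress groups and -0.26 (SE 0.46, unadjusted p = 0.571) from control to stress-low. With the animal block these were 0.62 (SE 0.53, unadjusted p = 0.266) and -0.58 (SE 0.50, unadjusted p = 0.269). From control to stress-high the smallest p was that of Col14a1 (-1.76, SE 0.95, unadjusted p = 0.078), which had at most 5 expected counts in the DG (unadjusted p = 0.0172 with the animal block).

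Collagens varied more between animals of a group than most genes did. Within-group SDs were taken on log2(CPM + 0.5), where CPM are counts scaled to library size. The median SD was 0.312 for the 38 collagens in the BLA, against 0.155 over all genes tested. Of the 38, 34 lay above the median of all genes. In the DG the median SD was 0.26 against 0.143, with 31 of 32 above. Low counts add to this spread, while the added 0.5 lessens it for genes with low counts. The part of each was not tested. The largest SDs were those of Col1a2 (0.974) and Col1a1 (0.784) in the DG and Col11a1 (0.752) and Col1a1 (0.701) in the BLA, while BLA Col4a1 had 0.127. The median SE of a collagen's log2 fold change was correspondingly 0.253 to 0.293 in the BLA and 0.215 to 0.242 in the DG, against 0.11 to 0.127 and 0.104 to 0.118 over all genes.

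Chains that are built into the same protein were compared across libraries, in 6 relations, on log2(TPM + 1) by a two-sided permutation test. Col1a1 and Col1a2 varied together in both regions. Pearson's r was 0.953 in the BLA (n = 12, permutation p = 2e-05, adjusted p = 0.00012, Spearman's rho 0.909 with permutation p = 8e-05). In the DG it was 0.943 (n = 11, permutation p = 0.0001, adjusted p = 0.0003, rho 0.9 with permutation p = 0.00043). Without the 2 libraries farthest from the median, r was 0.829 and 0.849.

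Col4a1 and Col4a2, the pair with the shared start region, also varied together on log2(TPM + 1). In the BLA r was 0.815 (permutation p = 0.00129, adjusted p = 0.00258, rho 0.755 with permutation p = 0.00661) and 0.611 without the 2 farthest libraries. On log2 CPM the BLA relation did not pass, at 0.588 (permutation test, adjusted p = 0.0708). In the DG r was 0.817 (permutation p = 0.00274, adjusted p = 0.00411, rho 0.818 with permutation p = 0.00352) and 0.928 without them. The level of Col4a1 over Col4a2 stayed within 0.575 to 0.726 in the BLA and 0.561 to 0.731 in the DG.

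For Col6a1 and Col6a2 no relation was detected in the libraries tested. In the BLA r was 0.473 (permutation p = 0.122, adjusted p = 0.146, rho 0.545 with permutation p = 0.0697) and 0.492 without the 2 farthest libraries. With the left-out control, which was highest for both genes, the BLA relation passed, at 0.768 (permutation test, adjusted p = 0.0061). In the DG r was -0.245 (permutation p = 0.46, adjusted p = 0.46, rho -0.301 with permutation p = 0.367) and -0.61 without them. DG Col6a1 ranged from 7.93 to 34.81 TPM while Col6a2 ranged from 1.32 to 2.81, so the ratio of these chains varied 4.43-fold between DG libraries, against 1.3-fold for Col4a1 over Col4a2.

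**Figure D5:**
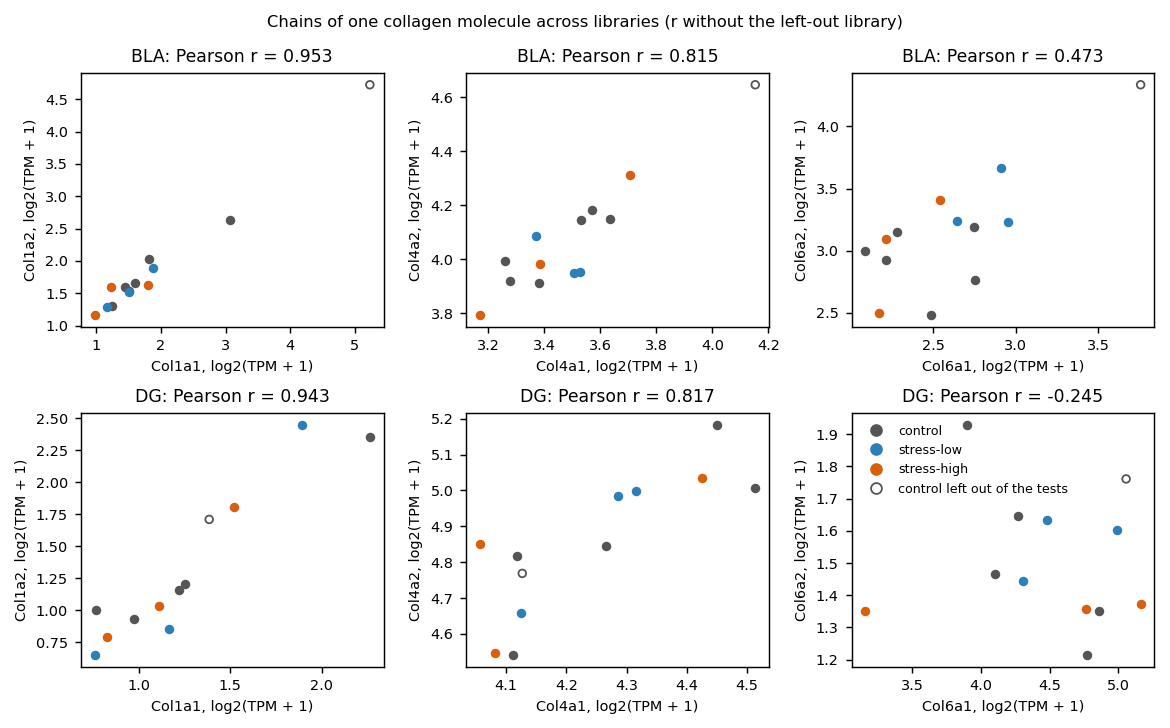
Log2(TPM + 1) of partner chains in each library (1 point per library, colored by group, hollow for the control left out of r) for Col1a1 with Col1a2, Col4a1 with Col4a2 and Col6a1 with Col6a2, in the BLA and the DG. The first 2 pairs have r of 0.815 to 0.953 and the type VI pair 0.473 and -0.245, and in the BLA the type IV pair falls to 0.588 on log2 CPM and the type VI pair reaches 0.768 with the hollow point.

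Genes that act on collagen were read from 5 lists, with 61 members tested in BLA libraries and 58 in DG libraries. None passed after adjustment in any comparison. At an unadjusted p under 0.05, from control to stress-low, control to stress-high and stress-low to stress-high, there were 0, 1 and 0 higher and 2, 0 and 0 lower in the BLA, and 1, 0 and 2 higher and 4, 2 and 2 lower in the DG. The shares of all genes at this level were 2.75%, 2.57% and 1.98% for BLA libraries and 6.90%, 2.19% and 3.12% for DG libraries, so the 5 of 58 in the DG between control and stress-low stand against 6.90%. In that comparison the list of chain modification and folding, with 16 genes tested, held the 4 lower genes, and the list itself was not tested. Among them were Colgalt2, a galactosyltransferase for collagen (-0.59, SE 0.23, unadjusted p = 0.0241, adjusted p = 0.718), and Lepre1, a prolyl 3-hydroxylase (-0.34, SE 0.14, unadjusted p = 0.0312, adjusted p = 0.718). In the BLA the list had 1 gene of 17 lower from control to stress-low, the chaperone Fkbp10 (-0.32, unadjusted p = 0.0454), and 1 higher from control to stress-high, Leprel4 (0.30, unadjusted p = 0.0485). Between the DG stress groups Leprel2, another prolyl 3-hydroxylase, was higher in stress-high (0.19, unadjusted p = 0.0397).

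Among 11 genes of propeptide cleavage and crosslinking, Lox, the enzyme that starts crosslinks, was lower in stress-high than in stress-low in the DG (-0.62, SE 0.28, unadjusted p = 0.0432), and no other comparison had a gene at this level. Of 10 degradation genes, the inhibitor Timp1 was lower in BLA stress-low than control (-0.57, unadjusted p = 0.0326) and higher in DG stress-high than stress-low (0.997, SE 0.43, unadjusted p = 0.0379). Mmp14, a membrane collagenase (-0.56, SE 0.19, unadjusted p = 0.0101), and Ctsk, the protease cathepsin K (-0.51, SE 0.23, unadjusted p = 0.0408), were lower in DG stress-high than control. Of 14 partners of the basement membrane, the laminin chain Lama2 was higher in DG stress-low than control (0.32, unadjusted p = 0.0241) and lower in stress-high than stress-low (-0.44, SE 0.14, unadjusted p = 0.00798). None of the 9 (BLA) or 7 (DG) collagen receptors tested had an unadjusted p under 0.05. All of these had an adjusted p between 0.718 and 1.0.

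Markers of the cells that make collagen did not pass after adjustment in any comparison. Of the 12 fibroblast markers tested in the BLA and 11 in the DG, Igf2 was lower (-0.54, unadjusted p = 0.0226) in BLA stress-high than stress-low, and Dcn, a proteoglycan that binds type I fibrils, was higher (0.89, unadjusted p = 0.00755) in DG stress-high than stress-low. These were the only fibroblast markers at this level, 1 of 12 and 1 of 11, against 1.98% and 3.12% of all genes. None of the 9 endothelial or 9 mural markers had an unadjusted p under 0.05 in either region. Choroid plexus, a source of other stromal RNA near the hippocampus, was near absent, with sums of 0.3 to 1.3 TPM in the libraries tested.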

How the data were processed

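Read alignment by the authors used STAR 2.6.0a with Rn5 and Ensembl build 75, and quantification used RSEM 1.3.1. For each region they deposited, per gene and library, an expected count, a TPM value (a transcript's share of its library), a length and an effective length, with no filter on low values. Tissue came as punches, and each library is 1 animal. Expected counts were rounded and tested in edgeR 4.0.16 (R 4.3.3) with TMM factors of 0.971 to 1.04, filterByExpr (minimum count 10), a quasi-likelihood model of group means in each region (15230 BLA and 14080 DG genes), and Benjamini-Hochberg adjustment at 0.05. Each SE given is the absolute log2 fold change divided by the square root of its quasi-likelihood F value. The study's own test, EBSeq, was not run. Region differences were an interaction in a joint fit. Simulated log2 changes of 0.5, 1 and 2 between the stress groups were recovered in 35.8%, 67.2% and 92.4% of changed BLA genes and 62.7%, 79.1% and 95.5% of changed DG genes. The changed genes were drawn at random from all genes tested. Collagens had a larger median within-group SD (0.312 against 0.155 in the BLA, 0.26 against 0.143 in the DG). These shares therefore do not give the recovery among collagens. Correlations used 100000 permutations. Alternatives were DESeq2 1.42.0, limma 3.58.1 on TPM, RLE factors, no filter, 2 groups alone, all libraries, each library left out and a block on the replicate number. Collagens with an unadjusted p under 0.05, or else the smallest p, were named, with at most 2 genes per pathway list and comparison. Members, lists and rules were chosen with earlier results of these data known.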

Additional observations from a re-analysis of the deposited data

Results flagged for a closer look

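In control groups of 5 or 6 libraries, the highest or lowest TPM was set against the other libraries by Dixon's criterion. Of 78 control groups tested, 11 had a library far from the rest. The criterion allows about 1 in 20 for independent, normally distributed values. The genes share libraries, TPM was not log-transformed, and all 11 were high values of the animals named below. The count therefore cannot show an excess over chance. In the BLA, animal 35 stood above the other 5 controls for Col1a1 (7.42 TPM, others 1.36 to 2.51), Col3a1 (6.65, others 1.36 to 2.61), Col6a3 (2.07, others 0.52 to 1.1), Col2a1 (0.68, others 0.16 to 0.26), Col9a1 (0.39, others 0.1 to 0.2) and the second model of Col4a3 (0.89, others 0.36 to 0.52). Animal 27 stood above the other BLA controls for Col12a1 (4.81, others 2.78 to 3.53) and Col23a1 (3.74, others 1.71 to 2.05). In the DG, animal 17 stood above the other 4 controls for Col1a2 (4.1, others 0.91 to 1.31), Col1a1 (3.8, others 0.7 to 1.38) and Col3a1 (1.91, others 0.4 to 0.74).

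The control libraries left out of the tests were set against the tested controls. BLA animal 2 lay above them in each sum, with 178.98 TPM of fibrillar collagens (controls 52.64 to 72.3), 48.56 of basement membrane collagens (29.39 to 35.46), 35.09 of type VI collagens (10.58 to 15.27) and 353.53 of all collagens (149.73 to 191.81). Its markers of striatum and central amygdala summed to 193.5 TPM (37.7 to 125.9 in controls) and its fibroblast markers to 70.3 (42.0 to 63.7). The part of these in the collagen values was not tested. DG animal 35 lay above them for type VI collagens alone (35.21 TPM, 17.65 to 30.39), inside them for fibrillar (61.21, 51.59 to 95.75) and basement membrane collagens (47.24, 44.2 to 64.06), and below them for all collagens (198.3, 203.81 to 277.11).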

How the results depend on the processing

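No collagen passed an adjusted p of 0.05 by edgeR, DESeq2 or limma under any of 17 to 20 settings per comparison within a region, and its smallest adjusted p was 0.31 (DG, control to stress-low). Collagens at an unadjusted p under 0.05 numbered 1 to 5, 0 to 2 and 1 to 4 over the BLA comparisons and 0 to 2, 0 to 1 and 0 to 2 over those of the DG. The shares of all genes in the main fits were 2.75%, 2.57% and 1.98% in the BLA. In the DG they were 6.90%, 2.19% and 3.12%. Shares of all genes are not given for every setting, so these ranges are not read as particular to collagens. With every mapped library the BLA median log2 fold change was -0.079 in stress-low and -0.099 in stress-high against controls. Leaving out each library gave medians of -0.096 to 0.091 (BLA, control to stress-high), -0.163 to 0.056 (BLA, stress-low to stress-high) and -0.065 to 0.14 (DG, control to stress-high). The values -0.096 and -0.163 came without stress-high animal 20 and 0.14 without DG control animal 17. The relation of BLA Col4a1 and Col4a2 was 0.588 (adjusted p = 0.0708) on log2 CPM, and that of Col6a1 and Col6a2 was 0.768 (adjusted p = 0.0061) with every mapped library. The causes were not tested. Replicate numbers did not pair the libraries (same-number correlations of -0.199 to 0.108 in the BLA and -0.246 to 0.101 in the DG). With the replicate block, collagens at an unadjusted p under 0.05 numbered 5, 2 and 2 for BLA comparisons and 1, 0 and 1 for DG comparisons. Among all genes there were 482, 474 and 292 of 15230 in the BLA and 762, 268 and 359 of 14080 in the DG. With the same block BLA Col6a1 gave 0.54 and -0.60, and Col3a1 gave -0.30. With animal as a block in the joint fit, collagens at an unadjusted p under 0.05 numbered 1, 2 and 1 (1, 0 and 1 without it). All genes at this level numbered 444, 430 and 538 of 15453 with animal as a block. This block, summing the Col4a3 models and removing group means before correlation were chosen after seeing the data. Low counts limited Col2a1, Col4a4, Col4a6, Col6a6, Col9a1, Col13a1, Col17a1, Col24a1 and the second Col4a3 model, where only large differences could be seen.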
